A study of Rattus norvegicus with 6 samples.

Results

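P2X receptors are the ion channels that open when extracellular ATP binds to them. The rat genome carries 7 genes for their subunits, P2rx1 to P2rx7, and all 7 were found by symbol among the 38445 genes of the count files. Their mRNA was measured by RNA-seq in the amygdala of adult male Sprague Dawley rats. Control rats received saline and ethanol rats received ethanol at 1 g/kg, both by intraperitoneal injection, and the tissue was taken 1 h later. Each group of 6 rats gave 3 libraries, because RNA from 2 animals was pooled for each library, so the spread between libraries is a spread between pools. The comparison asks whether the P2X mRNAs differed between the groups 1 h after the injection.

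P2X subunits assemble as trimers, as homomers or as mixtures of different subunits, around a pore that passes sodium and calcium. ATP that reaches them comes from synaptic vesicles and from pannexin and other channels of neurons and glia, and ectonucleotidases on the cell surface degrade it. P2X4 is widespread in brain neurons and microglia and is known to be inhibited by ethanol at the protein level. P2X7 is known mainly from microglia and other glia, where it drives the NLRP3 inflammasome, and P2X6 is known to form few functional channels by itself and to assemble with P2X4 and P2X2.

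The genes lie at 5 sites of the Rnor_6.0 build. P2rx1 (NCBI gene 25505) lies on chromosome 10 from 59566268 to 59581328, and P2rx5 (NCBI gene 113995) lies on the same strand 144 kb away, from 59725438 to 59737126. P2rx7 (NCBI gene 29665, chromosome 12 from 39353613 to 39396042) and P2rx4 (NCBI gene 29659, chromosome 12 from 39308022 to 39325673) also share a strand and are 27.9 kb apart. P2rx2 (NCBI gene 114115) is on chromosome 12 from 52397666 to 52401005, P2rx3 (NCBI gene 81739) on chromosome 3 from 72403992 to 72447801, and P2rx6 (NCBI gene 25041) on chromosome 11 from 87434929 to 87445221. The 7 genes have 11 to 14 exonic blocks that sum to between 1973 bases (P2rx4) and 3977 bases (P2rx7). None of these exons shares a base with another gene on the same strand. The exons of P2rx3 share 41 bases with Ssrp1 on the opposite strand, and the counting separated the strands.

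RefSeq promoter windows, 250 bases before to 50 bases after a gene's start in the GRCr8 build, were found for 5 of the 7 genes. The windows of P2rx6 and P2rx4 are shown because these subunits are known to assemble with each other and gave the largest difference between the groups and the highest level, respectively. Capitals mark CpG dinucleotides. The P2rx6 window is chr11:96954154-96954453 and the P2rx4 window is chr12:39523040-39523339, both on the minus strand and written 5′ to 3′. In the Rnor_6.0 build used for the counts, P2rx6 lies on the plus strand.
P2rx6: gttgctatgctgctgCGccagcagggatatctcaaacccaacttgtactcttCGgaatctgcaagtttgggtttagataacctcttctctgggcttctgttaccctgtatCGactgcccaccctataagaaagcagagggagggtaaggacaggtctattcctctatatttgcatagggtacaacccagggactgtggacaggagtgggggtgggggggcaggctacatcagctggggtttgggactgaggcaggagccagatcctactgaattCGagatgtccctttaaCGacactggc
P2rx4: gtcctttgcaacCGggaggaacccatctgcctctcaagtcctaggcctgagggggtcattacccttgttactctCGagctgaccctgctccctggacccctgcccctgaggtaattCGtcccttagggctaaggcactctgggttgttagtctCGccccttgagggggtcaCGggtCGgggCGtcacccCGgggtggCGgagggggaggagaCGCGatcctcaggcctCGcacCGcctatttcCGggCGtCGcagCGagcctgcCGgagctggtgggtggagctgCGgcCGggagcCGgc
The P2rx6 window holds 5 CpG dinucleotides at a GC content of 52.3%, near the medians of 7 and 51.7% over all 33469 windows. The P2rx4 window holds 21 at 66.7%, more CpG than 77.4% of all windows. Neither window contains, on either strand, the letters AGAACA (a hexamer of glucocorticoid response elements, present in 20.7% of all windows) or ACGTG (a core of hypoxia response elements, present in 19.3%).

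The libraries held 62576504 to 70755739 reads assigned to genes, and 3 counts corresponded to 0.0424 to 0.0479 CPM, a floor that covers counting error only. Every P2X gene was above this floor in all 6 libraries, with 53 to 899 counts. Markers of amygdala neurons were present in every library, with Slc17a7, the vesicular glutamate transporter of pallial neurons, at 413 to 879 CPM and Penk, the enkephalin precursor, at 144 to 257 CPM. Libraries differed in markers of neighboring structures. The 10 choroid plexus markers summed to 529 to 1150 CPM in the controls and to 12.7 to 491 CPM after ethanol, with ethanol replicates 1 and 2 far below the other 4 libraries, while the hypothalamic peptide precursor Pmch reached 207 CPM in ethanol replicate 3 and 2.12 to 14.5 CPM elsewhere. The 8 markers of ependyma and motile cilia summed to 76 to 101 CPM in the controls and to 58.8 to 64 CPM after ethanol. The summed levels of the groups overlapped for the other 9 marker lists, whose median log2 fold changes (ethanol relative to control) were 0.13 for amygdala neurons, 0.09 for microglia, 0.17 for oligodendrocytes, 0.06 for astrocytes, 0.01 for endothelium, -0.10 for smooth muscle and pericytes, 0.24 for platelets and red cells, -0.06 for thalamus and 0.19 for hypothalamus. These medians cover 4 genes, named after their values were seen, that had an unadjusted p below 0.05 and did not overlap between the groups. Each of these lists had 4 to 10 tested genes. Over all genes tested, 4.15% had an unadjusted p below 0.05 with edgeR's quasi-likelihood test, and 8.85% did not overlap. The neuronal transcription factor Tbr1 (log2 fold change 0.55) and the microglial marker Tmem119 (0.57) were higher after ethanol, and the astrocyte transcription factor Sox9 (-0.43) and the endothelial transporter Slco1c1 (-0.20) were lower. Their adjusted p was 0.818 for Tbr1 and 1 for the others with edgeR. The study listed Tbr1 among its increased genes and reported higher expression by qPCR too.

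The 7 subunits fell into an upper and a lower tier of mRNA abundance. Levels of different genes were compared as CPM per kb of exon. This scales by the summed exonic bases of each gene, not by the length of the transcripts present. Without this scaling, the mean over the 6 libraries was higher for P2rx7 (8.14 CPM) than for P2rx6 (7.27 CPM). Averaged over the 6 libraries, P2rx4 was highest at 6.39 ± 0.288 CPM per kb (SD, n = 6). It was followed by P2rx6 at 2.87 ± 0.742, P2rx7 at 2.05 ± 0.103 and P2rx2 at 1.82 ± 0.247 CPM per kb (SD, n = 6 each). The other 3 subunits were lower, with P2rx5 at 0.507 ± 0.0747, P2rx1 at 0.428 ± 0.0878 and P2rx3 at 0.345 ± 0.0748 CPM per kb (SD, n = 6 each). P2rx4 stood 2.23 times above P2rx6, and its lowest library was above the highest library of P2rx6. P2rx2 stood 3.59 times above P2rx5, also without overlap. The other 4 neighboring pairs in this order overlapped over the 6 libraries. Compared within each library, P2rx6 lay above P2rx7, and P2rx7 above P2rx2, in 5 of the 6 libraries. P2rx5 lay above P2rx1 in 5 of the 6, and P2rx1 above P2rx3 in 4 of the 6. P2rx6 lay above P2rx2, and P2rx5 above P2rx3, in every library. Within the controls alone, P2rx6 (3.45 ± 0.555 CPM per kb, SD, n = 3) lay above P2rx7 (2 ± 0.14) in all 3 libraries without overlap. After ethanol, P2rx6 (2.29 ± 0.253 CPM per kb, SD, n = 3) overlapped P2rx7 (2.09 ± 0.0286), and P2rx7 lay above P2rx2 (1.8 ± 0.306) in all 3 libraries without overlap.

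**Figure D1:**
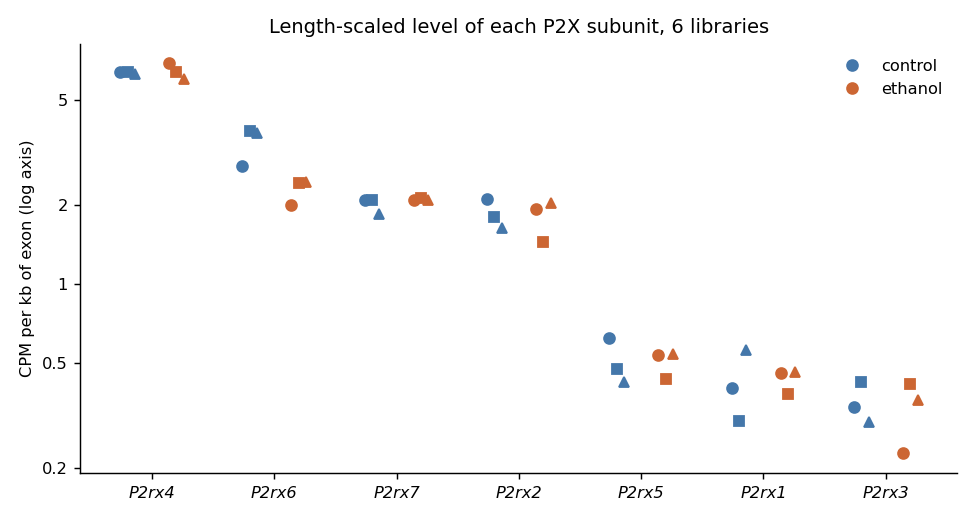
Level of each P2X subunit in CPM per kb of exon (log axis), ordered by the mean over the 6 libraries, with control libraries in blue and ethanol libraries in orange, and circle, square and triangle for replicates 1, 2 and 3. P2rx4 lies above all other subunits, and P2rx5, P2rx1 and P2rx3 lie below 0.7 CPM per kb in every library.

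P2rx6 was the only subunit whose groups did not overlap, and it was lower after ethanol. Its level was 7.11, 9.62 and 9.46 CPM in control replicates 1, 2 and 3, from 465, 683 and 600 counts. It was 5.06, 6.14 and 6.21 CPM in ethanol replicates 1, 2 and 3, from 325, 395 and 432 counts. All 3 ethanol libraries were below all 3 control libraries, and replicate 1 was the lowest of its group in both. The mean was 8.73 ± 1.4 CPM in controls and 5.8 ± 0.641 CPM after ethanol (SD, n = 3 each), a log2 fold change of -0.59 (standard error 0.15, 95% interval -0.93 to -0.25), or -33.5% on a linear scale with an interval from -47.5% to -15.8%. The difference did not pass correction over all genes, with an unadjusted p of 0.00421 and an adjusted p of 0.911 in the quasi-likelihood test of edgeR (Benjamini-Hochberg). Over the alternatives tried, the adjusted p ran from 0.103 to 1. A 2-sided exact permutation test of the 6 libraries gave p = 0.1, the smallest that 3 libraries against 3 allow. P2rx6 ranked 81 of 18141 genes by p, and 5.19% of all tested genes were lower after ethanol without overlap between the groups (8.85% in either direction). A log2 fold change of -0.5 or less, reached by 1 of the 7 subunits, was found in 2.7% of all genes. The study picked P2rx6 from these libraries for qPCR, although it missed the study's threshold of 0.2, and reported lower expression there too. Because of that choice, the place of P2rx6 in this ranking is not independent evidence. In RNA from whole tissue, fewer cells of a type and less RNA per cell cannot be told apart.

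The P2rx6 values moved together with the ependyma and cilia markers across the libraries. All 8 of these markers had a log2 fold change below 0, with a median of -0.60, and 5 of the 8 were lower without overlap between the groups. Of the 18141 genes tested, 8602 had a log2 fold change below 0, and 5.19% were lower without overlap. The marker lists were chosen with earlier results of these data known, so setting them against these shares is not independent evidence. The log2 fold changes of the 8 cilia markers ran from -0.97 (Cfap126) to -0.17 (Tekt1). None of the 8 was at 0 in a library. Cdhr4, a cadherin-related gene of ciliated cells, was at 21.9, 29.5 and 30.2 CPM in the controls and at 13.8, 16.8 and 15.3 CPM after ethanol, and Foxj1, the transcription factor of motile ciliogenesis, was at 11.9, 17.1 and 15.5 CPM and at 8.7, 9.16 and 13.9 CPM. Replicate 1 was the lowest library of its group, in controls and after ethanol, for P2rx6, for the summed cilia markers and for the summed choroid plexus markers. All 9 tested choroid plexus markers had a log2 fold change below 0, with a median of -1.85, and 4 of the 9 were lower without overlap, against the same 5.19%. The untested choroid plexus marker was Otx2, with no count in 5 of the 6 libraries. Ttr, the transthyretin gene and the most abundant choroid plexus mRNA, was at 462, 996 and 817 CPM in the controls and at 5.42, 4.34 and 425 CPM after ethanol, and Clic6, a chloride channel gene, at 11.3, 29.7 and 15 CPM and at 1.37, 1.29 and 12.9 CPM. The summed choroid plexus markers, like the summed cilia markers, did not overlap between the groups. With the choroid plexus score as a covariate, the P2rx6 log2 fold change was -0.40 (standard error 0.23, edgeR's quasi-likelihood test, unadjusted p = 0.128, adjusted p = 0.863). With the ependyma and cilia score as a covariate, which was added after the data were seen and itself separates the groups, it was 0.16 (standard error 0.25, unadjusted p = 0.538, adjusted p = 0.999, edgeR's quasi-likelihood test). Ethanol and the amount of ciliated tissue in a library cannot be told apart in these 6 libraries.

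**Figure D2:**
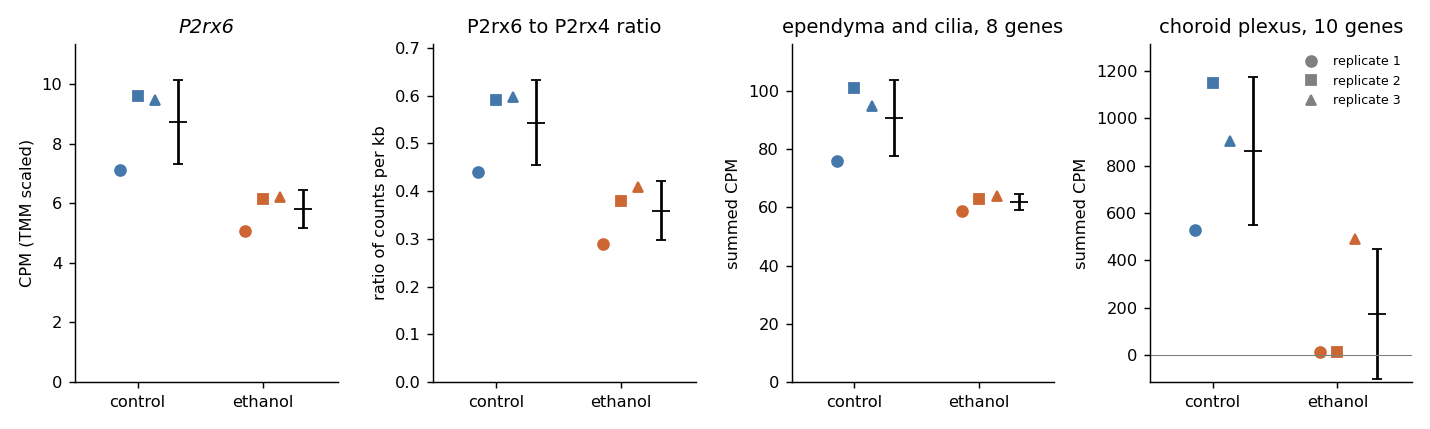
P2rx6 in CPM, the ratio of P2rx6 to P2rx4 counts per kb, and the summed CPM of 8 ependyma and cilia markers and of 10 choroid plexus markers in each library, with the mean and SD of 3 libraries per group in black. Control replicate 1 (circle) is the lowest control in all 4 panels, the ethanol libraries lie below all controls in each, and the SD bar of the choroid plexus sum after ethanol passes below 0.

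The other subunits known to assemble with P2X6 differed little between the groups. P2rx4, the most abundant, was at 12.6, 12.7 and 12.4 CPM in the controls and at 13.6, 12.6 and 11.9 CPM after ethanol. The ethanol libraries lay on both sides of the controls, and the log2 fold change was 0.02 (standard error 0.08), with a 95% interval from -0.17 to 0.21 that leaves changes between -11.1% and 15.5% possible. The 3 control libraries varied by a CV of 1.29%, below the 3.46% that counting alone gives at this depth. P2rx2, a subunit of neurons whose channels desensitize slowly, was at 4.24, 3.6 and 3.28 CPM in the controls and at 3.86, 2.92 and 4.08 CPM after ethanol. Its groups overlapped throughout, and the log2 fold change was -0.03 (standard error 0.17, 95% interval -0.42 to 0.35). The ratio of P2rx6 to P2rx4, taken within each library as counts per kb and therefore free of scaling between libraries, was 0.441, 0.592 and 0.598 in the controls and 0.29, 0.379 and 0.408 after ethanol. The groups did not overlap, and the log2 ratio was lower after ethanol by 0.60 on average (-0.893 ± 0.25 against -1.49 ± 0.258, SD, n = 3 each, 2-sided exact permutation test, p = 0.1, the smallest possible). The ratio of P2rx7 to P2rx4, by contrast, had a mean log2 value of -1.67 ± 0.0855 in controls and -1.62 ± 0.102 after ethanol (SD, n = 3 each, exact permutation test, p = 0.5).

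P2rx7, the subunit of the ATP-gated channel that activates the inflammasome in microglia, was at 8.31, 8.27 and 7.32 CPM in the controls and at 8.26, 8.46 and 8.26 CPM after ethanol. Apart from control replicate 3, the libraries lay within a narrow band, and the groups overlapped. The log2 fold change was 0.06 (standard error 0.09), with a 95% interval from -0.15 to 0.28, or -9.76% to 21.1%. P2rx4 and P2rx7 had the smallest standard errors of the 7 subunits.

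The lower tier was measured with less precision. P2rx1, a subunit of smooth muscle and platelets, was at 0.994, 0.746 and 1.39 CPM in the controls and at 1.14, 0.948 and 1.15 CPM after ethanol. The ethanol values lay inside the range of the controls, and the log2 fold change was 0.05 (standard error 0.24, 95% interval -0.51 to 0.62). P2rx3, the subunit of nociceptive sensory neurons, was at 1.33, 1.66 and 1.17 CPM in the controls and at 0.888, 1.63 and 1.42 CPM after ethanol. Ethanol replicate 1 was the lowest library, the groups overlapped, and the log2 fold change was -0.08 (standard error 0.25, 95% interval -0.66 to 0.50). P2rx5, a subunit that conducts weakly as a homomer, was at 1.54, 1.18 and 1.06 CPM in the controls and at 1.34, 1.09 and 1.35 CPM after ethanol. Its group means were both 1.26 CPM, with a 95% interval of the log2 fold change from -0.45 to 0.45. The 95% intervals of these 3 genes reached 0.45 to 0.58 on the log2 scale to either side of the estimate, with 3 libraries per group. Differences inside these intervals remain possible, and their width is not a detection limit. Counting error alone gave a CV of 10.4% to 12.1% for them, and the libraries of a group varied by 10.5% to 31%.

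**Figure D3:**
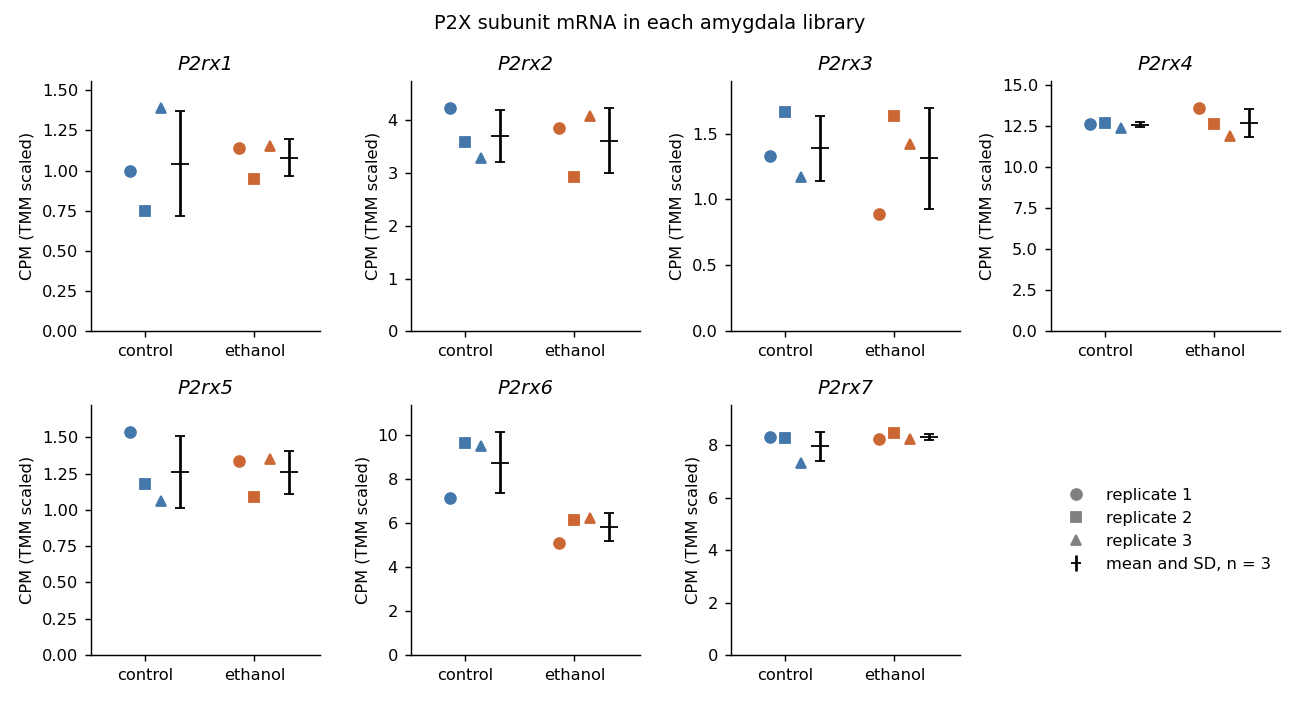
CPM (TMM scaled, axes from 0) of the 7 P2X subunits in each of the 3 control (blue) and 3 ethanol (orange) libraries, with the mean and SD of each group in black. The groups overlap for every subunit except P2rx6, whose ethanol libraries lie between 5.06 and 6.21 CPM and whose controls lie between 7.11 and 9.62 CPM.

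Over the family, 0 of the 7 subunits had an adjusted p below 0.2, the threshold used by the study, in edgeR's quasi-likelihood test adjusted over 18141 genes, and 0% of all genes had one. The study itself reported differing genes from these libraries at an FDR below 0.2. The 0% therefore holds for the test used here, not for the study's own analysis. At an unadjusted p below 0.05 there was 1 of 7 (P2rx6), against 4.15% of all genes in either direction and 2.58% in the lower direction. In the higher direction there were 0 of 7, against 1.57%. With DESeq2, 1 of the 7 had an adjusted p below 0.2, again P2rx6 (0.103), against 0.414% of all genes. The likelihood ratio test of edgeR gave P2rx6 an adjusted p of 0.204 and called 0.424% of all genes, and limma-voom gave 0.836 and called 0 genes. The adjusted p of the other 6 subunits was 1 when rounded, with edgeR's quasi-likelihood test. The median log2 fold change of the 7 was -0.00, and 3 were above 0 and 4 below.

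The summed level of the family was lower after ethanol, and the groups overlapped once P2rx6 was left out. The 7 subunits summed to 14.7, 15.3 and 14.8 CPM per kb in the controls and to 14.1, 13.6 and 13.9 CPM per kb after ethanol, without overlap (2-sided exact permutation test, p = 0.1, the smallest possible). Without P2rx6 the sums were 11.9, 11.5 and 11 CPM per kb in the controls and 12.1, 11.2 and 11.5 CPM per kb after ethanol, and the groups overlapped (exact permutation test, p = 0.7). P2rx6 was the only subunit whose groups did not overlap, so these sums restate its difference and are not independent evidence. P2rx4 made up 42.6 ± 0.658% of the summed level in controls and 46.3 ± 2.9% after ethanol (SD, n = 3 each). P2rx6 made up 23.1 ± 3.5% and 16.5 ± 2.03%, and P2rx7 13.4 ± 0.859% and 15.1 ± 0.458% (SD, n = 3 each). Shares sum to a fixed total, so a lower P2rx6 raises the share of the other subunits at an equal level.

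**Figure D4:**
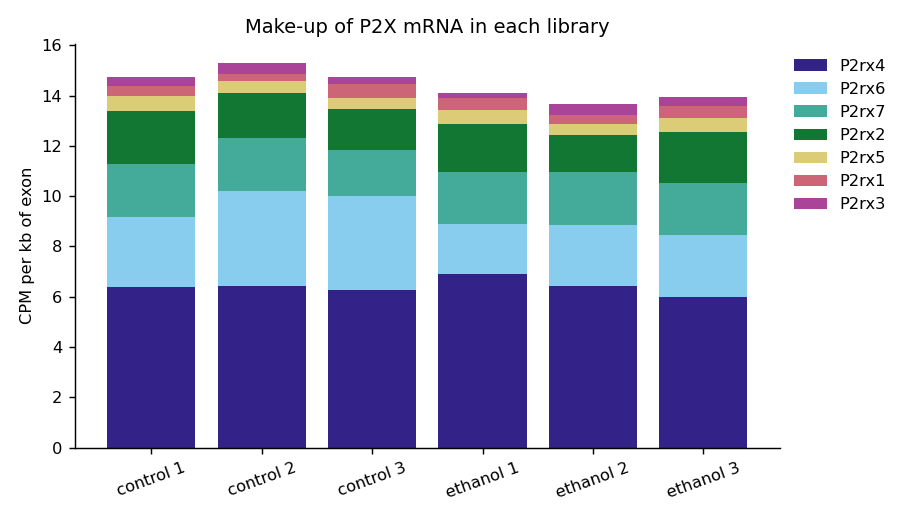
Summed level of the 7 P2X subunits in CPM per kb of exon in each library, stacked by subunit from P2rx4 at the base to P2rx3 at the top. The sums lie between 14.7 and 15.3 in the controls and between 13.6 and 14.1 after ethanol, and the P2rx6 segment is the part that is shorter in the ethanol libraries.

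Other genes of purinergic signaling were read from 4 lists of 29 genes, of which 25 were tested (P2ry10, Calhm1, Entpd1 and Entpd8 had too few reads). With edgeR's quasi-likelihood test 0 of the 25 had an adjusted p below 0.2, and 1 was higher and 2 were lower at an unadjusted p below 0.05, against 1.57% higher and 2.58% lower over all genes tested. With 6 or 7 tested genes in each list, the single genes reported for 3 of the lists are to be read against these shares. The median log2 fold change of the 25 was -0.00, against 0.006 over all genes tested. Among the P2Y receptors, the G protein-coupled nucleotide receptors, 0 of 7 tested genes were higher and 1 was lower at an unadjusted p below 0.05, with a median log2 fold change of -0.07. The exception was P2ry4, a UTP receptor, at 5.77, 7.08 and 6.77 CPM in the controls and at 5.83, 4.66 and 4.77 CPM after ethanol (log2 fold change -0.36, standard error 0.13, adjusted p = 1 with edgeR). Its groups overlapped through ethanol replicate 1. The microglial ADP receptors P2ry12 and P2ry13 were the most abundant, at 27.3 to 35.3 CPM and 9.86 to 14.1 CPM over the 6 libraries, with log2 fold changes of -0.07 and -0.06. The groups did not overlap for P2ry1, which was lower (-0.18), and for P2ry14, which was higher (0.39). Both were named after their values were seen, and neither had an unadjusted p below 0.05. Without overlap, 1 of the 25 genes was higher (P2ry14) and 2 were lower (P2ry1 and Il1b, described below). The shares over all genes tested were 3.65% higher and 5.19% lower.

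For loading and release of ATP, 0 of 6 tested genes had an unadjusted p below 0.05, and the median log2 fold change was 0.08. The pannexin genes Panx2 and Panx1, which encode large-pore channels, were at 90.6 to 104 CPM and 14.6 to 18.9 CPM, with log2 fold changes of 0.05 and 0.10. Among the ectoenzymes that degrade extracellular nucleotides, 1 of 6 tested genes was higher at an unadjusted p below 0.05, and the median was 0.02. This was Nt5e, the enzyme that makes adenosine from AMP, at 11.3, 6.39 and 8.75 CPM in the controls and at 11.9, 11.3 and 12.8 CPM after ethanol (log2 fold change 0.45, standard error 0.19, adjusted p = 1 with edgeR). Control replicate 1 reached the level of the ethanol libraries. Entpd2 and Entpd3, which hydrolyze ATP, were at 39.5 to 53 CPM and 20.3 to 22.4 CPM, with log2 fold changes of 0.05 and 0.09. In the inflammasome list downstream of P2X7, 1 of 6 genes was lower at an unadjusted p below 0.05, and the median was -0.08. This was Il1b, the interleukin-1 beta gene, which had 7 to 18 counts per library, at 0.211 to 0.284 CPM in the controls and 0.109 to 0.187 CPM after ethanol (log2 fold change -0.74, standard error 0.31, adjusted p = 1 with edgeR). Gsdmd, the pore-forming gasdermin, and Nlrp3, the sensor of the inflammasome, had log2 fold changes of -0.10 and -0.02.

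**Figure D5:**
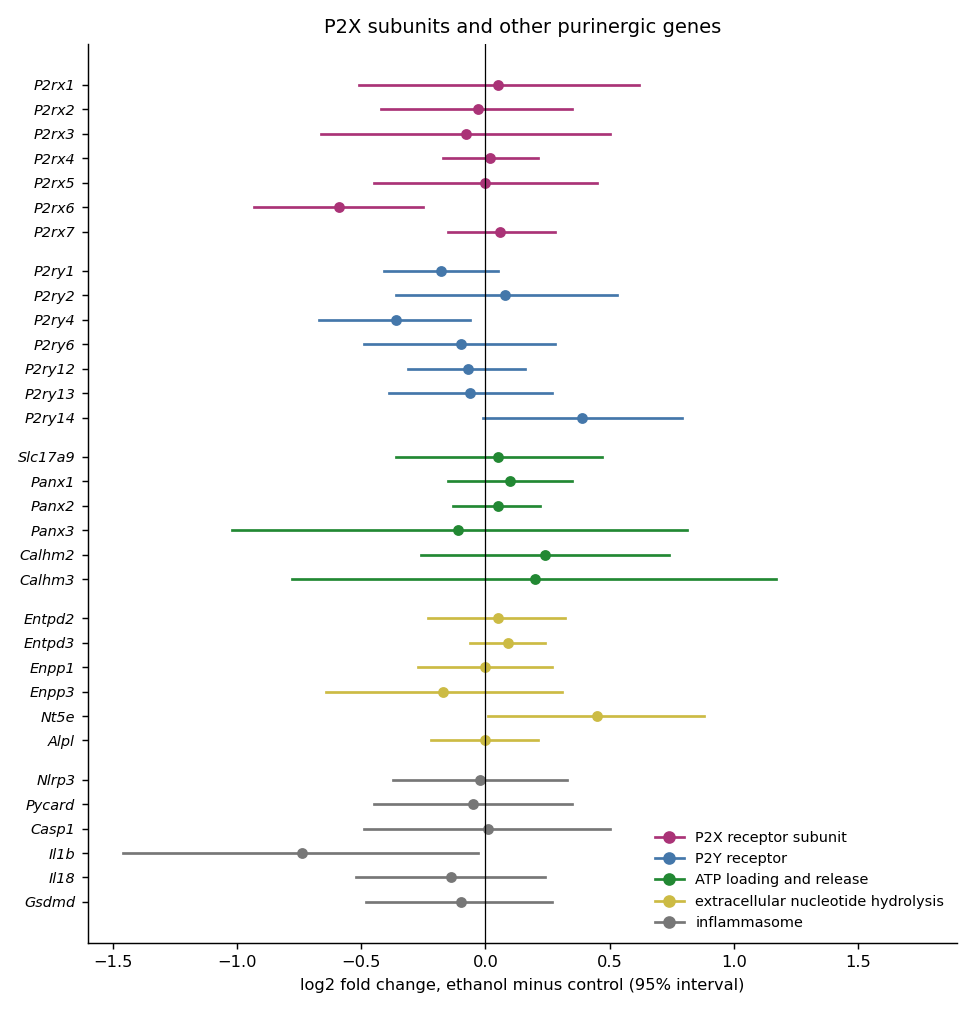
Log2 fold change (ethanol minus control, with 95% interval from edgeR's quasi-likelihood fit) of the 7 P2X subunits and 25 other purinergic genes, colored by role. The intervals of P2rx6, P2ry4, Nt5e and Il1b exclude 0 before correction for the number of genes, and all others include it.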

How the data were processed

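RNA-seq (TruSeq stranded mRNA, single-end) was analysed in 6 libraries, 3 per group, grouped by the sample titles. The authors deposited raw counts per gene. Per the file headers, featureCounts 1.6.3 counted reads over exons of the Rnor_6.0 annotation with the reverse-stranded setting (2), and the submitters' notes name STAR 2.7.0f. The study's statistical design is not given in the sources used here. Symbols were matched for 29322 of 38445 gene identifiers through RefSeq.

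Counts were analysed in R 4.3.3 with edgeR 4.0.16: filterByExpr (minimum 10 counts, 15 in total; 18141 genes), TMM factors (0.976 to 1.01), quasi-likelihood test, Benjamini-Hochberg adjustment, threshold 0.2. Standard errors were the absolute log2 fold change over the square root of F. CPM are TMM scaled. Permutation tests used 20 label swaps, on log2 CPM with a prior count of 2 for single subunits. Family sums were tested as CPM per kb, and ratios as log2 ratios of counts per kb without a prior count. Alternatives were DESeq2 1.42.0, limma-voom 3.58.1, other scaling and filters, a replicate block, marker scores as covariates, and leaving out each library. Within groups, libraries varied beyond counting noise (chi-square per degree of freedom 15.3 to 72.6). The fit was tested on simulated data with dispersions taken from these libraries. The planted changes were larger than that of P2rx6, so this test does not cover a change of its size.

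The members and lists were chosen with earlier results of these data known. The rule for named genes took the 7 subunits, pathway-list genes with an unadjusted p below 0.05, the 2 most abundant genes of each list (for marker lists, given only where a list is described), and the 3 genes closest to each subunit by Pearson r of log2 CPM.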

Additional observations from a re-analysis of the deposited data

How the results depend on the processing

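With edgeR's quasi-likelihood test 0 genes and 0 of the 7 subunits had an adjusted p below 0.2. The number of genes was 75 with DESeq2, 77 with the likelihood ratio test, 2 with the choroid plexus covariate, and 0 to 83 with each library left out (83 without ethanol replicate 3, 4 without ethanol replicate 1). The number of subunits was 1 with DESeq2 (P2rx6, log2 fold change -0.59) and 0 in all other settings. P2rx6 stayed between -0.72 and -0.50 with each library left out, between -0.61 and -0.58 under other scaling, filters and tools, was -0.40 with the choroid plexus covariate, and reversed to 0.16 with the ependyma and cilia covariate. The P2rx6 to P2rx4 difference stayed between -0.74 and -0.45 (log2) with each library left out and was -0.59 with a pseudocount of 10.

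The sign of the other subunits depended on the setting. With the choroid plexus covariate the log2 fold change reversed to 0.12 for P2rx2, 0.15 for P2rx3, -0.09 for P2rx4 and 0.04 for P2rx5. With the ependyma and cilia covariate it reversed to -0.17 for P2rx1, 0.52 for P2rx3, -0.06 for P2rx4 and -0.00188 for P2rx7, and it moved without a change of sign to -0.44 (standard error 0.41) for P2rx2 and -0.64 (standard error 0.44) for P2rx5. P2rx4 was -0.00798 with library size alone and P2rx5 0.01 with limma-voom. With each library left out, P2rx1 ran from -0.14 to 0.31, P2rx2 from -0.13 to 0.10, P2rx3 from -0.26 to 0.14, P2rx4 from -0.03 to 0.07, P2rx5 from -0.11 to 0.16 and P2rx7 from 0.01 to 0.09. The cause of these changes was not tested. The list medians also moved when a library was left out. For P2Y receptors the median lay between -0.18 and 0.03, for ATP loading and release between 0.01 and 0.22, for hydrolysis between -0.04 and 0.09 and for the inflammasome between -0.20 and 0.03. The median turned positive for P2Y receptors and the inflammasome when control replicate 3 was left out, and negative for hydrolysis when control replicate 1 was left out. Leaving out control replicate 2 gave the extremes of -0.18 and 0.22, and leaving out ethanol replicate 3 gave those of 0.01 and -0.20. Taken library by library, at least 5 of the 6 neighboring pairs kept the order of levels.

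Libraries share replicate numbers between groups but come from different rats. Deviations of libraries 1, 2 and 3 from their group means correlated by 0.0264, 0.388 and 0.211 with the same number over 14241 genes. Correlations between unlike numbers ran from -0.427 to 0.305. Control replicates 2 and 3 correlated best with their own number, and control replicate 1 with ethanol replicate 3 (0.305). These values do not settle whether the numbers pair the libraries. With the replicate number as a block, 0 genes had an adjusted p below 0.2 (1015 an unadjusted p below 0.05, against 753), P2rx6 was at -0.58 (adjusted p = 0.634 with edgeR), P2rx5 at 0.00638 and the P2rx6 to P2rx4 difference at -0.60.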

Other observations

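The genes whose log2 CPM followed each subunit most closely over the 6 libraries were searched among 14759 genes of at least 1 CPM. These are descriptions over 6 values, and between 44 and 133 genes reached a Pearson r of 0.9 with a given subunit. For P2rx6 they were Crybg1 (r = 0.991), the cilia gene Cfap126 (0.989) and a gene without a symbol (0.983). Of the 8 ependyma and cilia markers, 4 had an r of at least 0.9 with P2rx6 and the median was 0.91, whereas the median over all genes was -0.03. The 9 choroid plexus markers had a median of 0.81, and the 6 other P2X subunits a median of -0.30. Both marker lists were chosen with earlier results known and differ between the groups, as P2rx6 does. Their r values are therefore not independent evidence. For P2rx5 the closest genes were Tchh (0.996), Slc32a1 (0.991), the vesicular transporter of GABA and glycine, and Clp1 (0.983). For P2rx2 they were Vash2 (0.993), Pirt (0.992) and Fndc9 (0.991). P2rx2 and P2rx5 shared the order of libraries within each group, with control replicate 1 the highest control and ethanol replicate 2 the lowest ethanol library in both. Over all 6 libraries the lowest was ethanol replicate 2 for P2rx2 and control replicate 3 for P2rx5. For P2rx4 the closest genes were Smarca2 (0.990), Dcaf12-ps1 (0.985) and Map3k21 (0.983), and for P2rx7 Rsl1 (0.988), Med13 (0.982) and Rell2 (0.979). For P2rx1 they were Sgcb (0.983), Srgn (0.982) and Bhlhe41 (0.979), and for P2rx3 Rcl1 (0.983), Ascc2 (0.981) and Epb41l4a (0.973).

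The genes next to P2rx6 on chromosome 11 were read after its values were seen. Lrrc74b lies 183 bases to the left and Slc7a4 363 bases to the right, both on the opposite strand. Lrrc74b was at 2.36, 3.97 and 2.84 CPM in the controls and at 2.68, 2.47 and 2.01 CPM after ethanol (log2 fold change -0.36, standard error 0.21). Slc7a4 was at 41.9, 55.1 and 42.8 CPM and at 51.2, 57.5 and 42.6 CPM (0.11, standard error 0.14). The groups overlapped for both neighbors, so neither showed the separation seen for P2rx6.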
